A study of Mus musculus with 24 samples.

Results

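The transcripts described here encode the translation initiation factors outside the eIF2 complex, together with the proteins that bind eIF4E. They were chosen by name: gene symbols beginning Eif1, Eif3, Eif4, Eif5a, Eif5b or Eif6, without pseudogene symbols ending in -ps, and with a mean of 1 CPM or more over all 24 libraries (CPM are counts scaled to the same total in each library). The rule kept 37 of the 51733 genes in the deposited count table. The members nearest above the minimum were Eif4ebp1, at a mean of 1.20 CPM, and Eif4ebp3, at 1.99 CPM. The members of the name pattern below it were Eif3j2, with 10 counts over all libraries, and Eif4e1b, with 3. Another 7 rows with -ps symbols were left out, and none of them exceeded a mean of 0.00698 CPM.

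The mice were C57BL/6 males, adult at 2 to 3 months of age, and the hippocampi of each were combined for RNA. Mice called eIF2α cKI carried the non-phosphorylatable alanine form of eIF2α on both alleles (eIF2αA/A), a floxed transgene of normal eIF2α (fTg) and Cre recombinase under the CaMKIIα promoter, which acts mainly in excitatory neurons of the forebrain. Control mice carried CaMKIIα-Cre without the knock-in, so Cre was present in every group. Mice of either genotype were naive or were taken 1 h after fear conditioning, the pairing of a tone with a foot shock at its end. RiboTag, an HA-tagged ribosomal protein that Cre switches on, allowed ribosomes of Cre-positive cells to be pulled down with an antibody to HA. Each of the 12 mice gave 1 library from the immunoprecipitate and 1 from the remaining lysate, called the input, so that genotype, training and fraction made 8 groups of 3 mice. Depth, as the sum of all counts, was between 28.8 M and 37.7 M in the input libraries, while the immunoprecipitates held between 30.6 M and 43.5 M.

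Initiation factors bring a small ribosomal subunit to the cap of an mRNA, move it to a start codon and let the large subunit join. eIF4E binds the cap, eIF4G is the scaffold that holds eIF4E and the RNA helicase eIF4A, and the many-subunit eIF3 ties this assembly to the ribosome. The eIF4E-binding proteins (4E-BPs) compete with eIF4G for eIF4E and let go when mTOR phosphorylates them, a step long studied in synaptic plasticity and memory. eIF2, whose α subunit was altered in the cKI mice, carries the initiator tRNA in a separate step that meets these factors on the small subunit.

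Promoters of the members that the results turn on are printed first: Eif4g1 had the largest rise in the immunoprecipitates, Eif4ebp2 was the most abundantly counted of the 4E-BPs, all of which fell there, and Eif1 was the single member called between genotypes. Each runs 5′ to 3′ along the gene's strand from 250 bases before the annotated start to 30 bases after it, from RefSeq on GRCm38.p6, and capitals mark the E-box CACGTG. Eif4g1 lies at chr16:20672477-20672756 on the plus strand, Eif4ebp2 at chr10:61452640-61452919 on the minus strand, and Eif1 at chr11:100319699-100319978 on the plus strand.
Eif4g1: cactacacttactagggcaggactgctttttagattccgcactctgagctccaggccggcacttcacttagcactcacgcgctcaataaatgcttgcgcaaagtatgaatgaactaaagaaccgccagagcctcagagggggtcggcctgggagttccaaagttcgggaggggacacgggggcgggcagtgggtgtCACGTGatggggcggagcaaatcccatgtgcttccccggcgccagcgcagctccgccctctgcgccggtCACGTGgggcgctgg
Eif4ebp2: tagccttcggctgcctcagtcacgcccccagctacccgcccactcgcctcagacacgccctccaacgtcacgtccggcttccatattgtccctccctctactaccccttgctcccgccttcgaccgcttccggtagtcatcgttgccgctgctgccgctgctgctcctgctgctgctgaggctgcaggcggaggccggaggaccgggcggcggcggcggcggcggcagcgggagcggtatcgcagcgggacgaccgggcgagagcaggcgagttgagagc
Eif1: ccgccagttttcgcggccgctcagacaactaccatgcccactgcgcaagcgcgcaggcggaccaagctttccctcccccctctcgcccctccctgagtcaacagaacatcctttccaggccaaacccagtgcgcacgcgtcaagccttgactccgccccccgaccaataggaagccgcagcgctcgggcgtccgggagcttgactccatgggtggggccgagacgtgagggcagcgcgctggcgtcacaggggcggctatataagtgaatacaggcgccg

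The Eif4g1 promoter held the E-box at both positions where capitals stand, with first bases at -54 and 16 counted from the start as 1. A promoter was found for 28 of the 37 members. Of these, 10 held CACGTG, a palindrome bound by several basic helix-loop-helix factors, within 250 bases before to 50 after the start (Eif1b, Eif3a, Eif3f, Eif3k, Eif4a1, Eif4e, Eif4g1, Eif4h, Eif5a and Eif5a2). Over the 27025 genes in the same promoter table the share with this motif was 8.09%. The motif TGATGNAA, a composite element bound by ATF4, was searched on both strands and was found in 0 of the 28 member windows and in 4.51% of all genes. G and C made up a median of 62.5% of the member windows and 52.7% of all windows, so the sets also differed in base composition. A match is a stretch of letters and was not tested as a binding site.

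With TMM scaling, described below, most initiation factor transcripts were higher in the immunoprecipitates than in the inputs, while all the 4E-BPs were lower. By edgeR's quasi-likelihood test, with Benjamini-Hochberg adjustment over 17453 genes and an adjusted p of 0.05 as the threshold, 32 of 37 members were higher in immunoprecipitates, 4 were lower and 1, Eif5a2, was not called. Of all genes tested, 42.8% were called higher and 43.1% lower. The members' median log2 fold change was 0.51, against -0.01 over all genes. The levels of the immunoprecipitates and inputs did not overlap for 27 of 37 members, against 47.8% of all genes. By role, with TMM scaling as described below, the counts called higher were 6 of 6 scanning and start-codon factors, 13 of 13 eIF3 subunits, 5 of 5 helicases and their cofactors, 3 of 3 scaffolds, 2 of 3 cap-binding proteins, 2 of 3 in the group of eIF5A and eIF6, and 1 of 4 proteins that bind eIF4E.

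**Figure D1:**
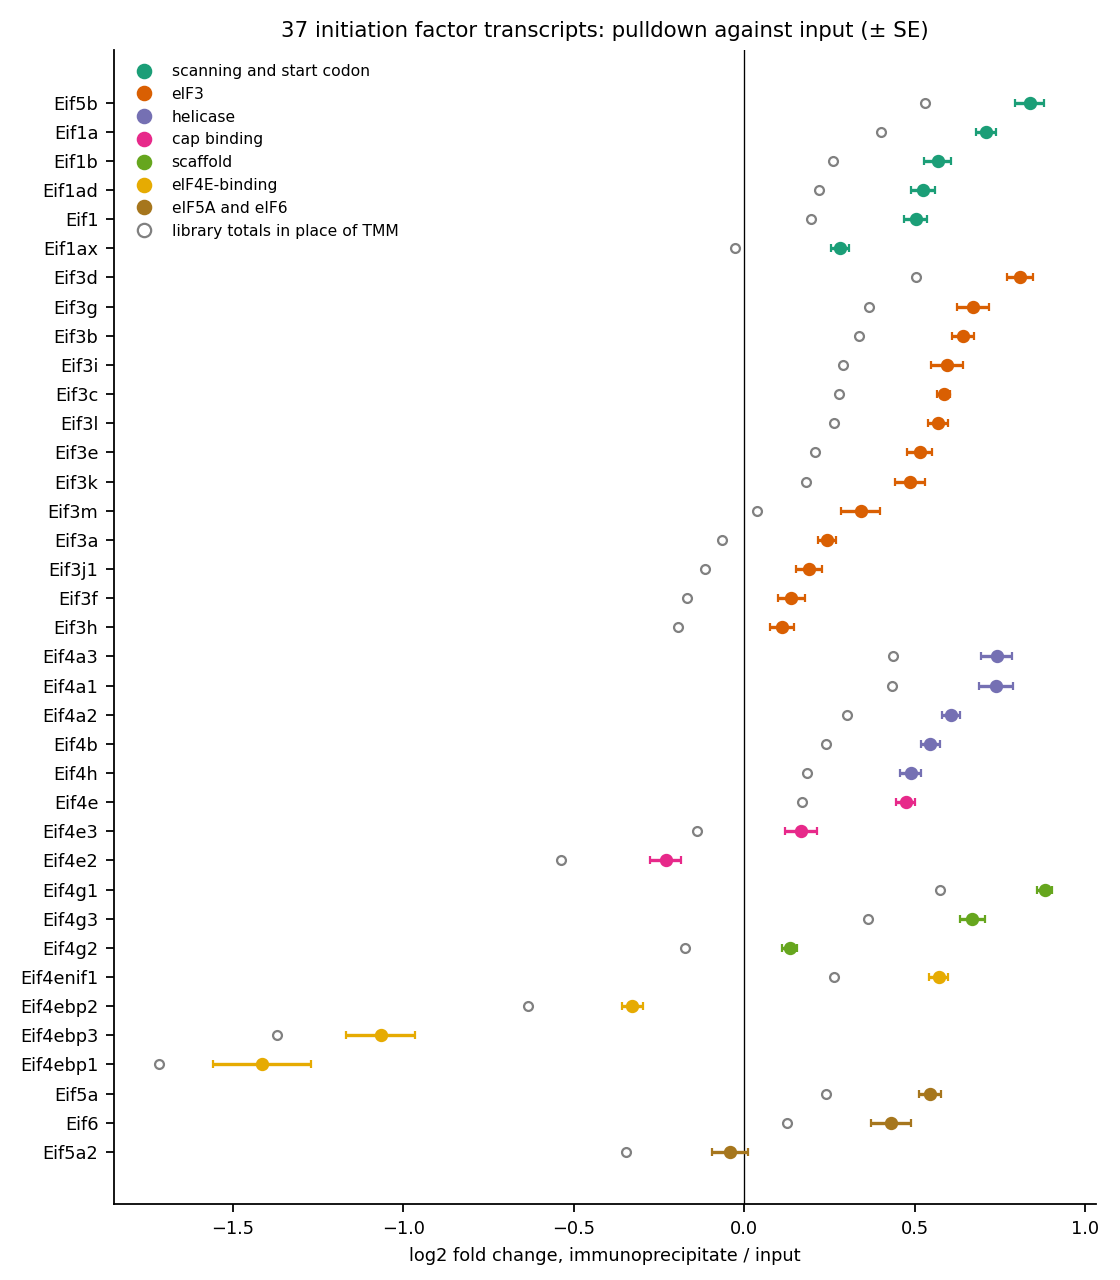
Log2 fold change of immunoprecipitate over input for each of the 37 members, ordered by role, with bars for the standard error and open circles for the value when libraries are scaled by their totals. Filled points lie to the right of 0 for 32 members, Eif4ebp1, Eif4ebp3, Eif4ebp2 and Eif4e2 lie to the left beyond their error, and 7 open circles fall on the other side of 0 from their filled point.

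The reference point of these fold changes depends on scaling. The TMM method, which assumes that most genes do not differ, gave factors of 1.08 to 1.14 to inputs and 0.878 to 0.926 to immunoprecipitates, and scaling by library totals lowered every value by about 0.31 on the log2 scale, with the median of all genes then at -0.31. The 23 members that were called higher and the 4 called lower under both scalings include every member described below unless its sentence says otherwise. The sign turned with library totals for 7 members, Eif1ax, Eif3a, Eif3f, Eif3h, Eif3j1, Eif4e3 and Eif4g2. In these bulk samples fewer cells of a type and less RNA per cell cannot be told apart. The pulldown carried its intended cells: all 7 excitatory markers were higher in immunoprecipitates (median log2 fold change 0.96), and all 9 inhibitory, 7 astrocyte, 7 oligodendrocyte and 7 microglial markers were lower (medians -2.12, -3.90, -4.02 and -4.69). Dentate granule markers were uneven, at 416 to 1516 summed CPM in immunoprecipitates and 647 to 776 in inputs.

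Among factors that scan for and fix the start codon, Eif5b, the GTPase that joins the large subunit, stood at 97.0, 103 and 125 CPM (lowest, median and highest) in the 12 inputs and at 172, 185 and 211 CPM in the 12 immunoprecipitates. The groups did not overlap, and the log2 fold change was 0.84 (SE 0.04, edgeR adjusted p = 9.74e-15). Eif1a, a start-codon factor of the eIF1A type, ran from 38.8 to 42.9 CPM in inputs and from 59.9 to 75.3 CPM in immunoprecipitates, and its log2 fold change was 0.71 (SE 0.03). Eif1, which guards against initiation at the wrong codon, had a log2 fold change of 0.50 (SE 0.03), with 162, 186 and 225 CPM in inputs and 236, 255 and 296 CPM in immunoprecipitates. Its close relative Eif1b rose by 0.57 on the same scale, and Eif1ad, placed in this group by its name, by 0.53. Eif1ax rose least of this group, by 0.28 with TMM scaling, and stood at -0.03 with library totals. Reads of the near-identical pairs Eif1 and Eif1b, Eif1a and Eif1ax, Eif4a1 and Eif4a2, and Eif3j1 and Eif3j2 could have been split between copies in counting, so their separate values are uncertain.

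The 13 measured eIF3 subunits were all higher in immunoprecipitates with TMM scaling, while Eif3a, Eif3f, Eif3h and Eif3j1 turned sign with library totals. The log2 fold changes covered a wide range, from 0.11 for Eif3h to 0.81 for Eif3d (median 0.51). Eif3d, the subunit that can itself contact the cap of some mRNAs, stood at 54.2, 61.6 and 76.1 CPM in inputs and at 98.1, 108 and 135 CPM in immunoprecipitates, without overlap. Eif3g, Eif3b and Eif3i followed with log2 fold changes of 0.67, 0.64 and 0.59. Eif3c, a subunit of the core, was the most even from mouse to mouse, its log2 ratio of immunoprecipitate to input lying between 0.50 and 0.64 in the 12 mice. The low end was formed by Eif3a, Eif3j1, Eif3f and Eif3h, at 0.24, 0.19, 0.14 and 0.11 with TMM scaling. With library totals these stood at -0.06, -0.12, -0.17 and -0.19, so no direction is drawn for them. Among mice, Eif3f was higher in the immunoprecipitate in 10 of 12 and Eif3h in 11 of 12.

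All helicase transcripts rose. Eif4a1, the eIF4A helicase of most tissues, stood at 40.1, 42.7 and 54.6 CPM in inputs and at 64.9, 71.1 and 97.9 CPM in immunoprecipitates, and its log2 fold change was 0.74 (SE 0.05, edgeR adjusted p = 1.84e-12). Eif4a2, its close paralog that is abundant in brain, stood at 522, 553 and 625 CPM in inputs and at 813, 838 and 940 CPM in immunoprecipitates, with a log2 fold change of 0.61 (SE 0.03). Eif4a3, a related helicase that acts in the exon junction complex rather than at the cap, had 10.6 to 13.9 CPM in inputs, 17.2 to 23.9 CPM in immunoprecipitates and a log2 fold change of 0.74. The eIF4A cofactors Eif4b and Eif4h had log2 fold changes of 0.55 and 0.49, each higher in the immunoprecipitate in 12 of 12 mice.

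The scaffolds covered a wide range. Eif4g1 had the highest fold change of the 37 members, with 306, 320 and 329 CPM in inputs and 558, 581 and 636 CPM in immunoprecipitates. Its groups lay far apart, and the log2 fold change was 0.88 (SE 0.02, edgeR adjusted p = 8.14e-21), which is 1.84-fold. In the 12 mice the Eif4g1 log2 ratio ran from 0.82 to 1.03. Eif4g3, the other scaffold that binds eIF4E, stood at 190, 208 and 225 CPM in inputs and at 246, 338 and 357 CPM in immunoprecipitates, with a log2 fold change of 0.67 (SE 0.04). The lowest of its immunoprecipitates, 246 CPM in naive cKI mouse 2, lay apart from the other 11, which were at 314 CPM or more. Eif4g2, which lacks the eIF4E-binding region, stood at 681, 707 and 731 CPM in inputs and at 719, 770 and 851 CPM in immunoprecipitates, which overlapped. Its log2 fold change was 0.13 (SE 0.02) with TMM scaling and -0.17 with library totals, and with lane as a covariate it was 0.10 and not called (edgeR adjusted p = 0.22).

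The cap-binding proteins split. Eif4e, the main cap-binding subunit, stood at 81.8, 87.3 and 91.8 CPM in inputs and at 116, 120 and 134 CPM in immunoprecipitates, without overlap and with a log2 fold change of 0.47 (SE 0.03). Eif4e2, also called 4EHP, a cap-binding relative that represses translation, had 10.4, 13.0 and 13.6 CPM in inputs and 8.52, 11.0 and 12.1 CPM in immunoprecipitates. The ranges overlapped, its log2 fold change was -0.23 (SE 0.05, edgeR adjusted p = 7.65e-05), and it was lower in the immunoprecipitate in 10 of 12 mice. With lane as a covariate the value was -0.32 and not called (edgeR adjusted p = 0.066). Eif4e3, a further relative, had a log2 fold change of 0.17 with TMM scaling and -0.14 with library totals.

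The 4E-BPs were the members that fell furthest. Eif4ebp1 stood at 1.19, 1.58 and 2.27 CPM in inputs and at 0.396, 0.583 and 1.07 CPM in immunoprecipitates, so the groups did not overlap. Its log2 fold change was -1.41 (SE 0.14, edgeR adjusted p = 3.48e-09), 0.375 times the input. Eif4ebp1 passed the minimum of 1 CPM only through its inputs (mean 1.65 CPM, against 0.625 CPM in immunoprecipitates). Its fall is therefore not independent of the rule that chose it, and its p-value is not evidence of a fall. Eif4ebp3 stood at 1.96, 2.50 and 3.22 CPM in inputs and at 0.813, 1.23 and 1.81 CPM in immunoprecipitates, again without overlap, and its log2 fold change was -1.07 (SE 0.10). Eif4ebp3 lies just downstream of Ankhd1, whose own log2 fold change was -0.30, and reads that run from Ankhd1 into it could not be told apart. Eif4ebp2, the 4E-BP known to predominate in brain, stood at 94.5, 101 and 112 CPM in inputs and at 69.7, 81.5 and 94.7 CPM in immunoprecipitates. Only its extremes met, the log2 fold change was -0.33 (SE 0.03, edgeR adjusted p = 1.14e-09), and each of the 3 genes was lower in the immunoprecipitate in 12 of 12 mice. Eif4enif1, also called 4E-T, which carries eIF4E into the nucleus and into processing bodies, went the other way with 50.4, 55.8 and 59.8 CPM in inputs and 77.5, 84.0 and 88.6 CPM in immunoprecipitates, and its log2 fold change was 0.57 (SE 0.03). The astrocyte, oligodendrocyte and microglial markers fell with the 4E-BPs, and their part in these values was not tested.

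**Figure D2:**
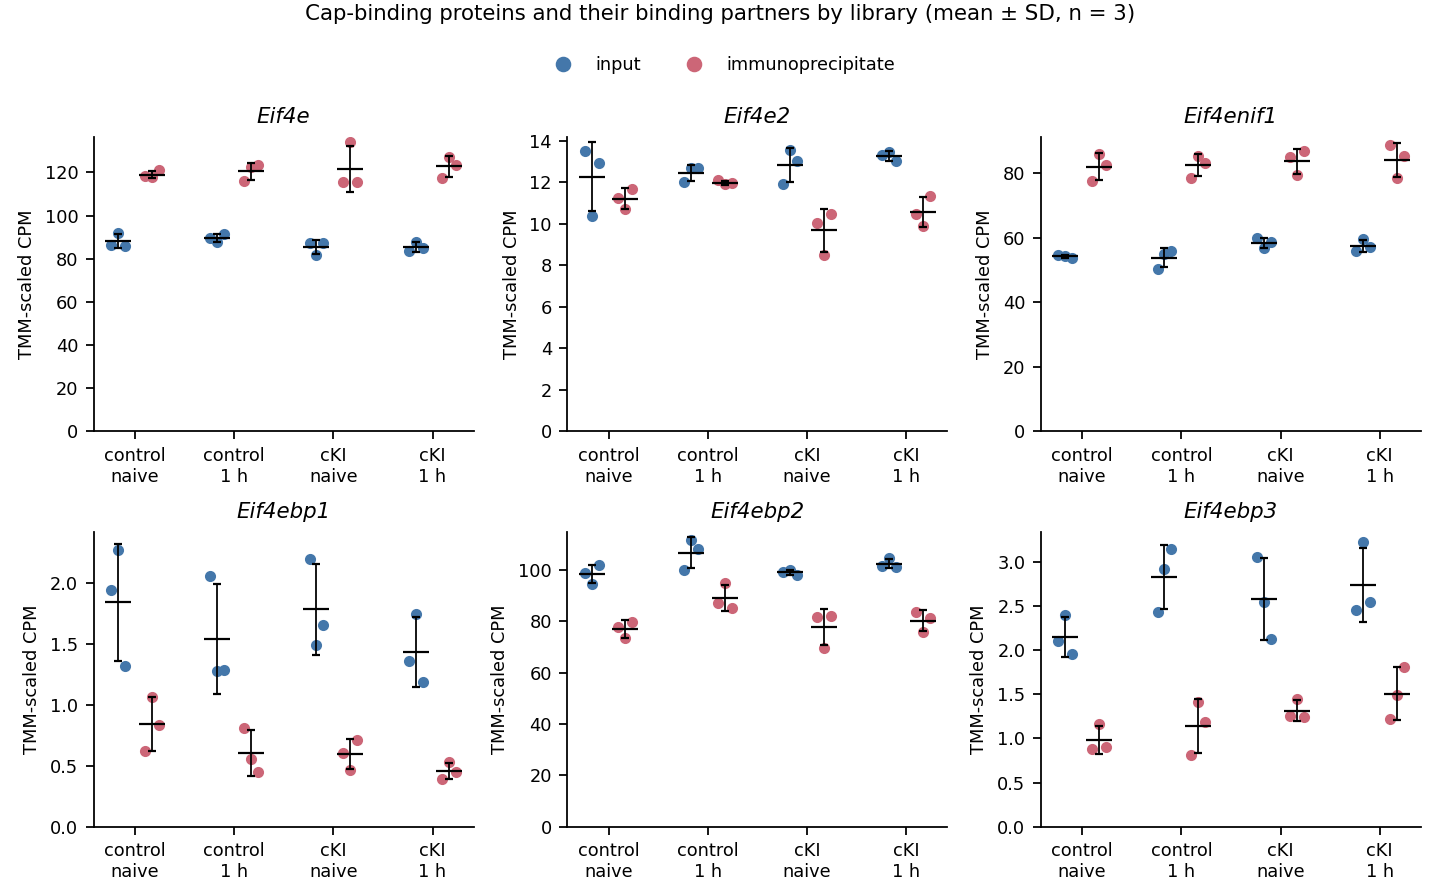
TMM-scaled CPM of 6 cap-binding and eIF4E-binding members in each library by genotype and training, with inputs in blue, immunoprecipitates in red, and black lines for the mean ± SD of 3 mice. Immunoprecipitates lie above inputs in all groups for Eif4e and Eif4enif1, and below them for Eif4ebp1, Eif4ebp2 and Eif4ebp3.

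The last group holds factors whose work lies partly beyond initiation. Eif5a, the hypusine-bearing factor that helps ribosomes through difficult peptide bonds, stood at 180, 190 and 230 CPM in inputs and at 264, 276 and 320 CPM in immunoprecipitates, with a log2 fold change of 0.54 (SE 0.03). Its paralog Eif5a2 stood at 55.2, 64.7 and 68.4 CPM in inputs and at 48.8, 65.1 and 73.6 CPM in immunoprecipitates. These overlapped throughout, and the log2 fold change was -0.04 (SE 0.05, edgeR adjusted p = 0.46). The ratio was above 0 in 5 of 12 mice, and the fold change was 0.004 with lane as a covariate and -0.35, called lower, with library totals. Eif6, which keeps the large subunit from joining too early, had 31.4 to 45.2 CPM in inputs and 41.3 to 61.4 CPM in immunoprecipitates. Its log2 fold change of 0.43 (SE 0.06) was called with TMM scaling, and with library totals it was 0.12 and not called (edgeR adjusted p = 0.054).

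Each kind of mouse was also taken apart. The members' median log2 fold change of immunoprecipitate over input was 0.40 in naive control mice, 0.48 in control mice 1 h after conditioning, 0.58 in naive cKI mice and 0.57 in cKI mice 1 h after conditioning, with 32 members above 0 in each. Mouse by mouse the members' median log2 ratio lay between 0.43 and 0.58 in 10 of 12 mice. The exceptions were naive control mouse 2, at 0.22, and naive cKI mouse 2, at 0.72. Leaving out both libraries of these 2 mice gave 31 members called higher and 4 lower, with a members' median of 0.44 against -0.07 over all genes.

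**Figure D3:**
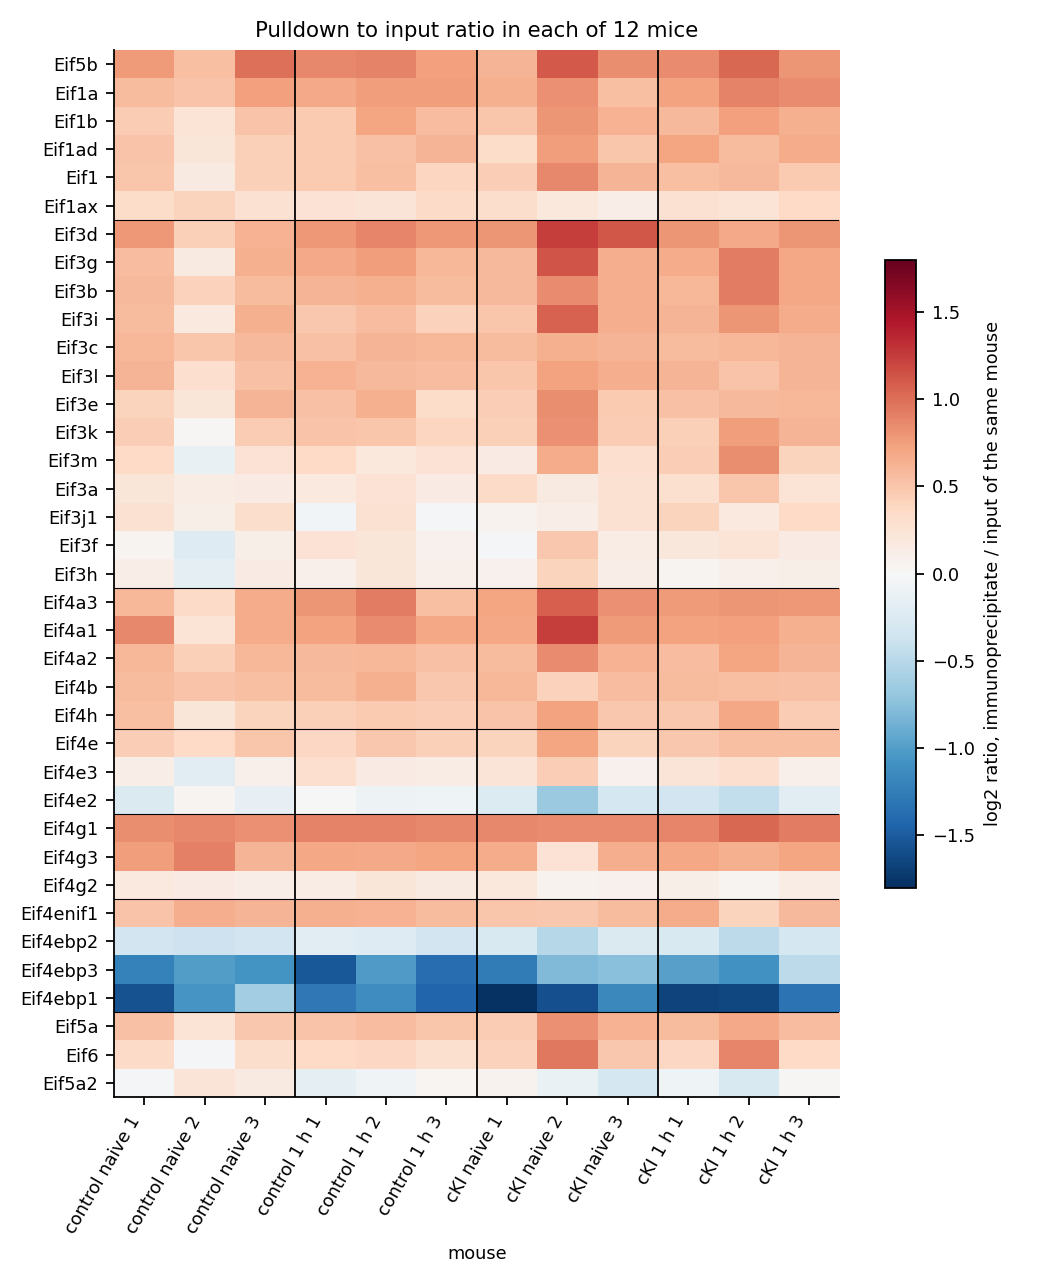
Log2 ratio of immunoprecipitate to input of the same mouse for the 37 members (rows, by role) in the 12 mice (columns, with vertical lines between groups), red for higher in the immunoprecipitate and blue for lower. Rows of the 4E-BPs are blue in every mouse, naive control mouse 2 is the palest column and naive cKI mouse 2 the deepest.

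Partners and regulators of these factors, 35 genes from a list of their binding partners and kinases, were less uniform. With TMM scaling 25 were called higher in immunoprecipitates and 5 lower, against 42.8% and 43.1% of all genes. Their median log2 fold change of 0.30 did not exceed the shift of 0.31 between scalings, so no direction is drawn for the set. The same limit holds for any rise of that size in this paragraph, all of whose values are with TMM scaling. The higher genes include Mcts1, a reinitiation factor (0.85), and Cyfip2, which binds FMRP (0.80). Larp1, a repressor of terminal oligopyrimidine mRNAs (0.76), and Pdcd4, which blocks eIF4A (0.65), were also among them. The eIF5A-modifying enzymes Dhps and Dohh rose by 0.73 and 0.59. The 5 lower genes were Rps6ka1 (-1.92), Rps6kb2 (-0.80) and Rps6ka3 (-0.22), kinases that act on eIF4B or ribosomal protein S6, Pabpn1, the nuclear poly(A)-binding protein (-0.52), and Paip2b, an inhibitor of poly(A)-binding protein (-0.15). On the eIF2 side, 9 of 9 subunits of eIF2, eIF2B and eIF5 were higher with TMM scaling, with a median of 0.58.

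Between genotypes, the members differed little. In inputs, as the mean of naive and conditioned mice, edgeR called 1 of 37 members, Eif1, which was lower in cKI mice. Of all genes 3.15% were called in this comparison, so 1 of 37 is close to the background. Eif1 stood at 191, 225 and 189 CPM in naive control inputs, at 195, 193 and 192 CPM in conditioned control inputs, at 183, 162 and 173 CPM in naive cKI inputs and at 174, 170 and 171 CPM in conditioned cKI inputs. Every cKI input lay below every control input. The log2 fold change was -0.17 (SE 0.04, edgeR adjusted p = 0.029), from 198 ± 13.6 CPM in controls to 172 ± 6.95 CPM in cKI mice (SD, n = 6).

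The Eif1 call was close to the threshold. The value was -0.19 in naive mice (edgeR adjusted p = 0.11) and -0.16 in conditioned mice (edgeR adjusted p = 0.37), so neither state passed alone. In immunoprecipitates the Eif1 log2 fold change was -0.02 (SE 0.05), and the test of the difference between fractions gave 0.17 (SE 0.07, edgeR adjusted p = 0.26). Leaving out single inputs kept the value between -0.19 and -0.14, but the call was lost without any of 7 of the 12 (naive cKI mouse 2 and the 6 conditioned mice), with adjusted p of up to 0.082. It was also lost with library totals (edgeR adjusted p = 0.052) and with lane as a covariate (-0.25, edgeR adjusted p = 0.11). The number called the lane here is the one in the run label: it was 4 for all cKI inputs and for 2 naive control inputs, and 5 for the other control inputs. Among the naive inputs of lane 4 the Eif1 difference was -0.23 (edgeR adjusted p = 0.14).

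Small differences in inputs leaned downward over the members. Of the 37 log2 fold changes 30 were negative, with a median of -0.03 against 0.00 over all genes, and 9 had an unadjusted p under 0.05. All 13 eIF3 subunits were negative (median -0.08), from values near 0 for Eif3a to -0.16 for Eif3i, and none was called. Naive control mouse 2 had the highest control input for all of them but Eif3a and Eif3j1. For Eif3i it stood at 63.2 CPM, against 47.0 to 50.9 CPM in the other control inputs. The subunits were measured in the same libraries, so their signs are not separate observations. DESeq2 called 4 members where it called 5.49% of all genes: Eif1, Eif3c (-0.09), Eif4h (-0.10) and Eif4enif1 (0.13). Levels in control and cKI inputs did not overlap for 4 of 37 members, Eif1, Eif3c, Eif4g1 and Eif4enif1, against 3.51% of all genes. Eif3c stood at 175, 181 and 188 CPM (lowest, median and highest of 6) in control inputs and at 165, 168 and 171 CPM in cKI inputs. Eif4enif1 stood at 50.4, 54.4 and 55.8105 CPM in control inputs and at 55.8298, 57.8 and 59.8 CPM in cKI inputs, which nearly touched. The 7 oligodendrocyte markers were lower in cKI inputs too, all called and with a median log2 fold change of -0.35 (3479 to 4273 summed CPM in cKI inputs and 3904 to 5618 in control inputs). Of the 9 inhibitory markers 2 were called lower, as were 2 of the 7 astrocyte markers, and 1 of the 8 dentate granule markers was called higher. The part of these cell types in the members' values was not tested.

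**Figure D4:**
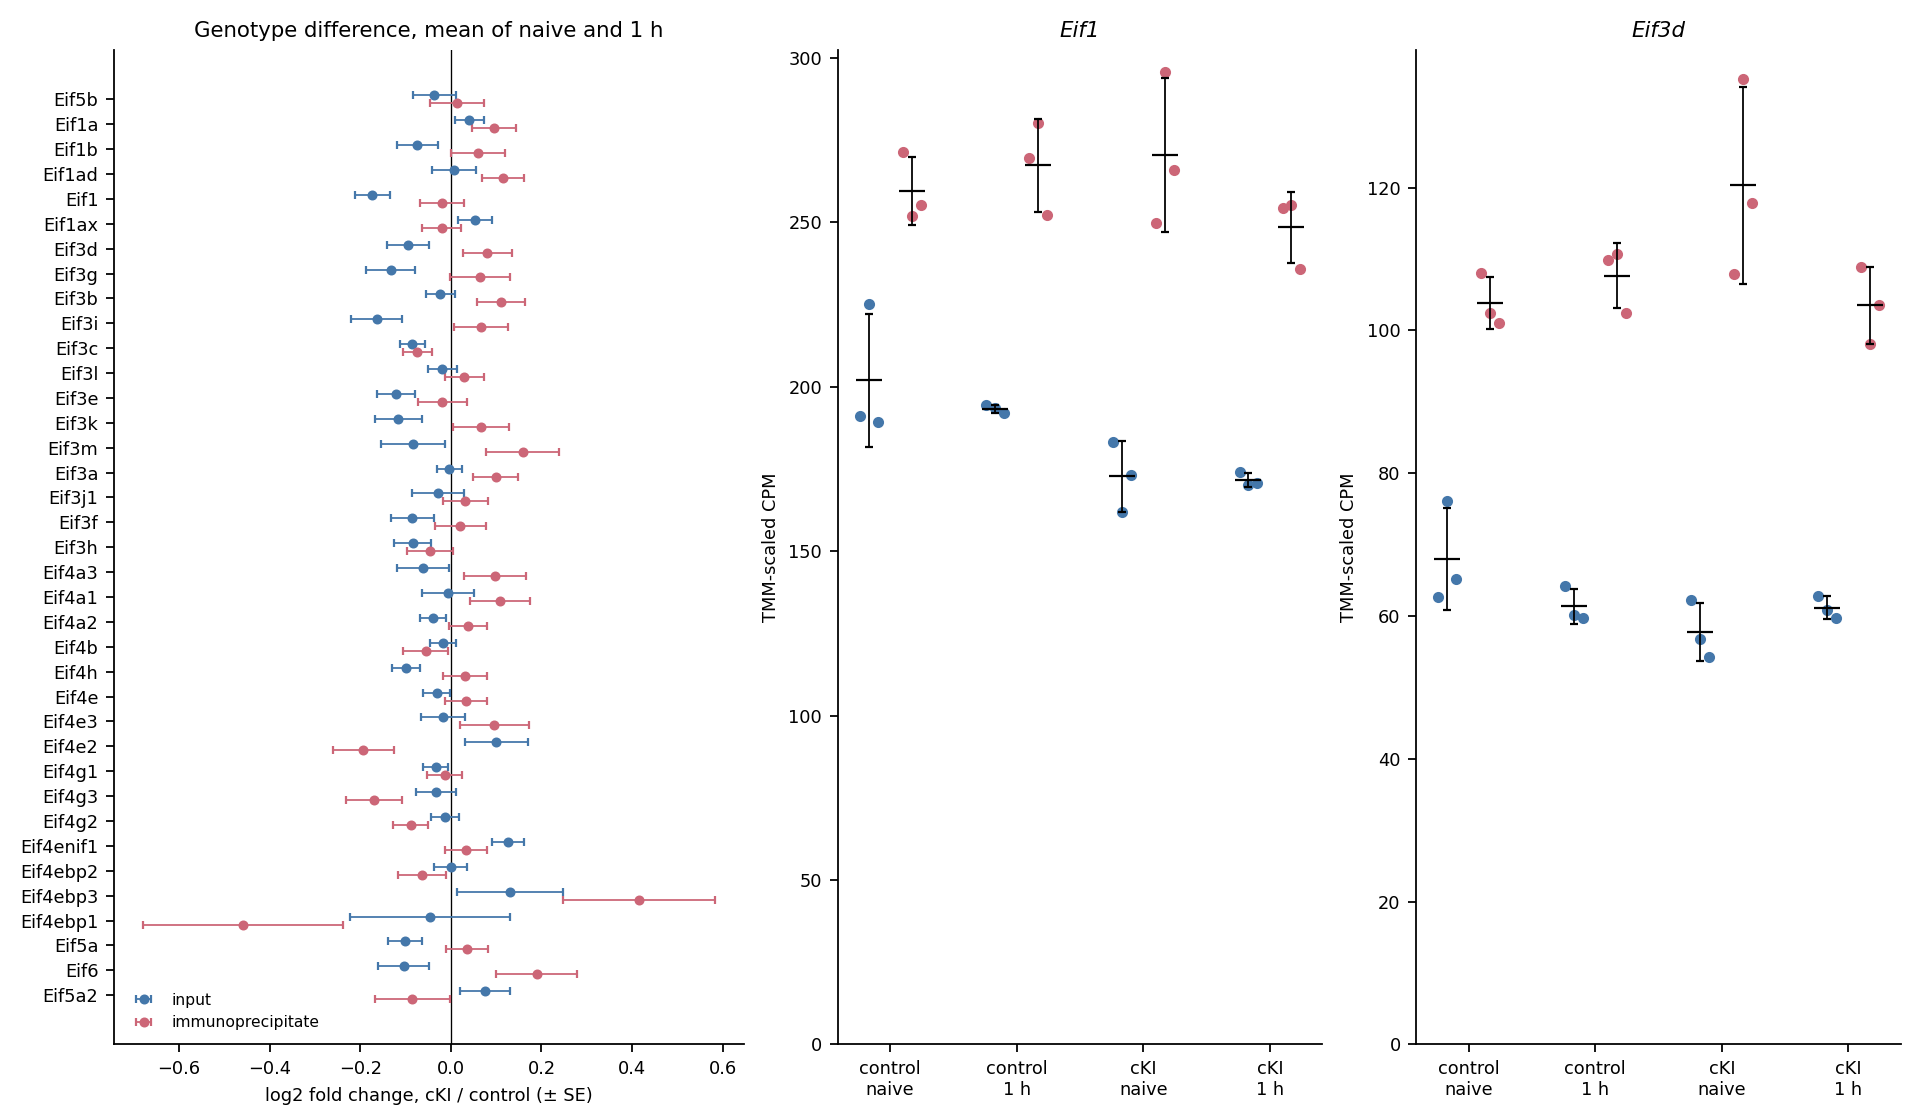
Left, log2 fold change of cKI over control mice as the mean of naive and conditioned mice for each member in inputs (blue) and immunoprecipitates (red), with standard errors. Right, TMM-scaled CPM of Eif1 and Eif3d in every library with mean ± SD of 3 mice: blue Eif1 points of cKI mice lie below those of control mice, while red points overlap.

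In immunoprecipitates edgeR called 0 of 37 members between genotypes as the mean of both states, with 1.69% of all genes called, 6 members at an unadjusted p under 0.05 and 0 called by DESeq2. The smallest p belonged to Eif4e2, at 10.7, 11.8 and 12.1 CPM (lowest, median and highest of 6) in controls and 8.52, 10.3 and 11.3 CPM in cKI mice. These overlapped, and the log2 fold change was -0.19 (SE 0.07, edgeR adjusted p = 0.16). Eif4g3 was next, with 343 to 357 CPM in controls and 246 to 334 CPM in cKI mice, no overlap and a fitted log2 difference of -0.17 (SE 0.06, edgeR adjusted p = 0.17). Eif4ebp3 had the third, at 0.813 to 1.41 CPM in controls and 1.22 to 1.81 CPM in cKI mice, which gave a log2 difference of 0.42 (SE 0.17, edgeR adjusted p = 0.21). Levels did not overlap for 2 of 37 members, Eif4g3 and Eif3c, against 1.50% of all genes. Among partners 1 of 35 was called, which is close to the 1.69% of all genes. It was Angel1, an eIF4E-binding protein of the deadenylase family, at 0.31 (edgeR adjusted p = 0.044). Of the partners 1 was called in naive mice alone, where genotype and lane coincide, and 0 in conditioned mice alone. All control immunoprecipitates ran in lane 6 and most cKI ones in lane 5. With lane as a covariate 3 genes were called in place of 258. On the eIF2 side Eif2s1, the altered gene, and Eif5 were called higher in both fractions.

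The naive and conditioned mice taken apart gave no member calls in immunoprecipitates. In naive mice edgeR called 0 of 37 where it called 3.70% of all genes, with 6 members at an unadjusted p under 0.05 and 0 called by DESeq2. Eif4g3 (-0.25), Eif3d (0.21) and Eif4a1 (0.25) had the smallest p there, with edgeR adjusted p of 0.12, 0.13 and 0.14. Naive cKI mouse 2 was the highest of the 12 immunoprecipitates for Eif3d (135 CPM) and Eif4a1 (97.9 CPM) and the lowest for Eif4g3. All 8 dentate granule markers had positive values in this comparison (median log2 fold change 0.99, 1 called), at 1038 to 1516 summed CPM in naive cKI and 420 to 1142 in naive control immunoprecipitates. Other lists went the other way: all 6 CA1 markers (median -0.48, 1 called) and all 7 oligodendrocyte markers (median -0.39, 1 called) were negative. Of the 7 excitatory markers 1 was called higher and 1 lower. The part of these cell types in the members' values was not tested. The 3 naive cKI immunoprecipitates were all run in lane 5 and the 3 naive control ones in lane 6, so genotype and lane cannot be told apart there. In conditioned mice 0 of 37 were called against 0.0591% of all genes, with 0 at an unadjusted p under 0.05 and 0 by DESeq2, and the smallest p were those of Eif1ad (0.14), Eif3j1 (0.14) and Eif3a (0.13), each with an edgeR adjusted p of at least 0.90. In inputs edgeR called 0 of 37 in naive mice (0.859% of all genes, 8 members at an unadjusted p under 0.05) and 0 in conditioned mice (0.267% of all genes, 4 members). DESeq2 called Eif1 in naive inputs, where it called 2.91% of all genes, and 0 in conditioned inputs. After Eif1, the smallest p were those of Eif3d (-0.20, edgeR adjusted p = 0.15) and Eif4enif1 (0.14, edgeR adjusted p = 0.18) in naive inputs, and of Eif4h (-0.11, edgeR adjusted p = 0.49) and Eif4enif1 (0.11, edgeR adjusted p = 0.52) in conditioned inputs. Leaving out single inputs moved the Eif3d value of naive inputs between -0.25 and -0.13.

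Fear conditioning left no member past the threshold at 1 h. As a check on training, 9 immediate-early genes such as Fos and Arc were read from the same immunoprecipitate fits. Of these, 2 were called in control mice (median log2 fold change 0.72) and 1 in cKI mice (median 0.88). Most of them were thus not called either, so the lack of member calls does not show that the members were unchanged. In immunoprecipitates of control mice edgeR called 0 of 37 where it called 0.328% of all genes, with 3 members at an unadjusted p under 0.05 and 0 by DESeq2. Those 3 were Eif4ebp2 (0.21, SE 0.07, edgeR adjusted p = 0.30), Eif3j1 (-0.19, edgeR adjusted p = 0.31) and Eif4e3 (0.26, edgeR adjusted p = 0.40). Eif4ebp2 stood at 77.8, 73.3 and 79.8 CPM in naive and at 87.1, 94.7 and 85.2 CPM in conditioned control mice, which did not overlap. In inputs of control mice Eif4ebp2 also had the smallest p (0.14, SE 0.05, edgeR adjusted p = 0.32), with 98.8, 94.5 and 102 CPM in naive mice and 99.9, 112 and 108 CPM after conditioning, which overlapped. Eif4ebp3 (0.42, edgeR adjusted p = 0.33) and Eif3g (-0.17, edgeR adjusted p = 0.39) came next, and edgeR called 0 of 37 with 0.737% of all genes called, 3 at an unadjusted p under 0.05 and 0 by DESeq2. Leaving out single inputs moved the Eif3g value between -0.23 and -0.07. Within lane 5 the Eif4ebp2 input value was 0.08. That lane held all conditioned control inputs but only naive control mouse 3 of the naive ones, so training and lane largely coincide here. Among partners Mknk2, a kinase of eIF4E, was called higher in these inputs (0.30, edgeR adjusted p = 0.017).

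In cKI mice conditioning gave 0 of 37 calls in immunoprecipitates (0.0459% of all genes, 3 members at an unadjusted p under 0.05, 0 by DESeq2) and 0 of 37 in inputs (0.0174% of all genes, 0 members, 0 by DESeq2). The smallest p in immunoprecipitates were those of Eif3d (-0.21, edgeR adjusted p = 0.32), Eif4a1 (-0.23, edgeR adjusted p = 0.33) and Eif1a (0.15, edgeR adjusted p = 0.39). In inputs they were those of Eif3j1 (-0.13), Eif3d (0.09) and Eif1ad (-0.09), each with an edgeR adjusted p of 0.99. The comparisons of Eif3d and Eif4a1 by genotype in naive mice and by training in cKI mice share the naive cKI libraries.

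The test of whether training acted differently in the genotypes called 0 of 37 members in immunoprecipitates (0.0131% of all genes, 3 members at an unadjusted p under 0.05, 0 by DESeq2) and 0 of 37 in inputs (0.0348% of all genes, 1 member, 0 by DESeq2). In immunoprecipitates Eif3d (-0.26), Eif3j1 (0.22) and Eif4a1 (-0.29) had the smallest p, with edgeR adjusted p of 0.49, 0.51 and 0.53. In inputs they were Eif3d (0.21), Eif4a2 (0.09) and Eif4ebp3 (-0.33), each with an edgeR adjusted p of 0.99.

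The ratio of immunoprecipitate to input was then compared between genotypes in a single fit over all libraries. No member was called (0 of 37, with 0.0229% of all genes called, 12 members at an unadjusted p under 0.05 and 0 by DESeq2). The members' median difference, cKI minus control, was 0.12 on the log2 scale against 0.02 over all genes, with 28 of 37 positive. All 13 eIF3 subunits were positive, 7 of them at an unadjusted p under 0.05. Eif4e2 (-0.27, SE 0.09, edgeR adjusted p = 0.24), Eif3i (0.25, SE 0.09, edgeR adjusted p = 0.26) and Eif6 (0.32, SE 0.12, edgeR adjusted p = 0.26) had the smallest p. Naive control mouse 2 and naive cKI mouse 2 had the lowest and the highest members' median ratio (0.22 and 0.72). They were picked for these values, so leaving them out was bound to shrink the difference and tests nothing. Without both, the members' median difference was 0.03 against 0.01 over all genes, with 26 of 37 positive and 2 members at an unadjusted p under 0.05. Of the eIF3 subunits 12 of 13 were then positive and 1 had an unadjusted p under 0.05. Their median difference was 0.06 without these mice and 0.13 with all mice. By training the ratio gave 0 of 37 calls (0.00573% of all genes, 1 member at an unadjusted p under 0.05, 0 by DESeq2), and the smallest p were those of Eif1a (0.14), Eif1ad (0.13) and Eif4g1 (0.07), all with an edgeR adjusted p above 0.99.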

How the data were processed

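The authors deposited raw counts per gene, each row a symbol with 1 Ensembl transcript identifier. Libraries were poly(A)-selected and directional, per the labels' protocols. Cutadapt, Bowtie and DESeq2 appear, without roles, in the submitters' processing notes. Counting tool, strand setting and build: not given in the sources used here. Transcript lengths were not used, so levels are not compared between genes.

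Counts were fitted in R 4.3.3 with edgeR 4.0.16 (filterByExpr, TMM, robust quasi-likelihood test, Benjamini-Hochberg over all genes, threshold 0.05): 12 immunoprecipitates (15238 genes), 12 inputs (17232) or all 24 libraries (17453), with 1 mean per group. DESeq2 1.42.0 was an alternative. Printed levels are TMM-scaled CPM; the choice of members used plain CPM. Ratios per mouse used CPM + 0.05. In the fits of 12 libraries p-values measure the spread between mice. The fit of all 24 libraries had no mouse term and treated both libraries of a mouse as separate. The members and lists were chosen with earlier results of these data known. Named were the largest rises and falls between fractions, the eIF4F subunits, eIF4E-binding proteins, Eif4g2, Eif5a, Eif5a2 and Eif6, and per other comparison the called members or the 3 smallest p. On simulated counts the fits found 34% (immunoprecipitate genotype), 40% (input genotype) and 54% (between fractions) of genes changed 1.25-fold. The changed genes were drawn at random from all tested genes, without lane or mouse effects, so these are not rates for the members. Replicate libraries all differed beyond sampling noise. Alternatives were scaling, filtering, DESeq2, lane, replicate block and leaving out each library. Immunoprecipitate and input of a mouse were matched by the mouse number in the labels, and same-mouse deviations correlated at a median r of 0.14 (from -0.24 to 0.54).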

Additional observations from a re-analysis of the deposited data

How the results depend on the processing

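Counts of members called were recomputed under 99 combinations of comparison and alternative besides leaving out single libraries, and 93 stayed within 1.5 times the reported count. In inputs, cKI against control gave 1 call as reported, 4 with DESeq2's Wald test and 0 with lane as a covariate, with the replicate block or with library totals (chosen after seeing the data), and 0 to 1 without single libraries. The naive inputs alone gave 1 call with DESeq2's Wald test. With library totals 11 members, not 4, were lower in immunoprecipitates than in inputs, and 23 were higher. Without single libraries the counts were 29 to 32 higher and 4 lower, and with lane as a covariate (inputs ran in lanes 4 and 5, immunoprecipitates in lanes 5 and 6) 26 and 3.

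Of the members named, the value changed sign for Eif5a2 with lane as a covariate (0.0039) and for Eif4g2 with library totals (-0.1737). The cause was not tested. Over 60 named results and 1377 alternative values, 1358 kept direction and side of the threshold, 13 lost a call and 4 gained one.

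Over all genes, the input genotype comparison called 543 genes as reported, 946 with DESeq2, 292 with the replicate block and 18 with lane as a covariate, and the naive immunoprecipitate comparison called 564, 1285, 1018 and 1. In immunoprecipitates only the conditioned cKI group spans lanes, with mouse 1 in lane 5 and mice 2 and 3 in lane 6. In inputs only the naive control group does, with mice 1 and 2 in lane 4 and mouse 3 in lane 5. Each lane term thus leans on a single library, and these drops cannot tell lane from genotype. Between fractions lane as a covariate left 9763 of 14996 calls. The replicate block ended the Eif1 call (adjusted p = 0.064) and changed no other member's call. Within a fraction, mice share only a number: same-numbered deviations correlated at r of -0.41 to 0.61 in immunoprecipitates (10 of 18 pairs over 0.1) and -0.33 to 0.26 in inputs (1 of 18). Pairing by mouse left 32 higher and 4 lower between fractions.

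With 971 and 1610 counts over all libraries, Eif4ebp1 and Eif4ebp3 carried the widest errors (SE 0.14 and 0.10 between fractions).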
